A study of Mus musculus with 4 samples.

Results

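Ppy and Pyy encode pancreatic polypeptide and peptide YY, and their transcripts were followed cell by cell in mouse pancreatic islets. They were the 2 genes with those symbols among the 30905 genes listed in each deposited matrix. Single-cell RNA was counted in 4 libraries, 1 for each labelled group: early db/db, late db/db, late db/db with intervention, and a normal control. They are called the control, early, late and intervention libraries below. Animals of the early library were 70 days old, and those of the other 3 were 98 days old. The db/db mouse carries a mutation of the leptin receptor gene and becomes obese and hyperglycaemic. The genotype label of every library reads db/db(C57BL/KsJ), and the normal control carries it too. The growth protocol names males of C57BL/6 and of C57BL/ksJ-db (db/db), bought at 8 weeks, without saying which of them gave the control. The db/db animals were fed until blood glucose passed 10 mmol/l and were then assigned to groups at random. What the intervention was is named in the labels only by an unexplained abbreviation. The deposited matrix of the early library carries a name that reads as another control. Its group was taken from the sample label. The sources used here do not say how many mice went into a library. Since each group was a single library, differences between groups have no replicate check and were not tested, and every interval below is a 95% interval that covers counting error only. Values for several libraries are listed in the order control, early, late, intervention.

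The matrices held between 120934779 and 166034254 UMIs (unique molecular identifiers, 1 per captured transcript molecule). After filtering, 4458, 4616, 5983 and 4906 cells were kept, with median depths between 6190 and 26430.5 UMIs. Between 3 and 11 cell barcodes were shared by any 2 libraries. Cells were clustered without Ppy, Pyy and the other 5 hormone genes (Gcg, Sst, Iapp, Ins1 and Ins2), and clusters carrying the pan-endocrine markers held 3976, 2575, 1118 and 4210 endocrine cells. These clusters were beta-, alpha- and delta-like, apart from cluster 2, which stayed unnamed because Ppy and Pyy led its genes. Endothelial- and immune-like cells (316, 986, 4508 and 360) served as background, since they should lack both hormones. In them the median was 2, 1, 1 and 4 UMIs of Ppy per cell, at median depths of 8466, 3823.5, 5072 and 4151 UMIs, and 2, 1, 1 and 3 UMIs of Pyy. A cell was called dominant for the hormone with its largest UMI count (insulin being Ins1 plus Ins2) when that count passed the 99th percentile of the background cells of its library. For Ppy that limit was 9, 4.15, 7 and 12 UMIs, and for Pyy 7.7, 6.05, 5 and 11 UMIs.

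Pancreatic polypeptide, peptide YY and neuropeptide Y form 1 peptide family that signals through the Y receptors. Pancreatic polypeptide is the hormone of the gamma (PP) cells of the islet, and peptide YY is best known from the L cells of the gut and is also made in islet endocrine cells. Prohormone convertases cut both from larger precursors, peptidyl-glycine amidating monooxygenase (Pam) amidates the carboxyl end, and the protease Dpp4 trims the amino end of peptide YY. On the GRCm38 assembly (GENCODE M21) Ppy (ENSMUSG00000017316) lies on the minus strand at chr11:102099930-102101319 and Pyy (ENSMUSG00000017311) on the same strand at chr11:102106676-102107832. The genes are 5356 bases apart, no annotated gene lies between them, and no other gene overlaps either one.

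The coding stretches of the mature hormones are shown because both genes are counted in the same cells, so a reader should see how far their transcripts can be told apart. Each line gives codons 30 to 65 of Ppy or 29 to 64 of Pyy, read from the annotated transcripts, followed in capitals by the glycine, lysine and arginine codons at which the precursor is cut and amidated.
Ppy: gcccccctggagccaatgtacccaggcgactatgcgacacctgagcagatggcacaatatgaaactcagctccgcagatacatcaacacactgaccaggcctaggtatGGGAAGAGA
Pyy: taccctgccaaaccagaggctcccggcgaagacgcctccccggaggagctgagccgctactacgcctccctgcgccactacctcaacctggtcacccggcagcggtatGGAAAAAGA
Over the 108 bases before the capitals, 53.7% were identical. The longest run of bases shared by any Ppy and any Pyy transcript was 10 bases.

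The 250 bases before each start site are shown because the genes are neighbours with the most alike profiles over clusters (last paragraph). They come from RefSeq (GRCm38.p6), chr11:102101320-102101569 for Ppy and chr11:102107833-102108082 for Pyy, both read 5′ to 3′ on the minus strand. Capitals mark the motifs TATAA and TGCTGA.
Ppy: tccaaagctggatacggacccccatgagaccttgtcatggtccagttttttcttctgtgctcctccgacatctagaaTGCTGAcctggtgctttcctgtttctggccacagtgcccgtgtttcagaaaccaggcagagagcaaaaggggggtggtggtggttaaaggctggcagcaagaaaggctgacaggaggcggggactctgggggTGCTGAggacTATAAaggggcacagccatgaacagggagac
Pyy: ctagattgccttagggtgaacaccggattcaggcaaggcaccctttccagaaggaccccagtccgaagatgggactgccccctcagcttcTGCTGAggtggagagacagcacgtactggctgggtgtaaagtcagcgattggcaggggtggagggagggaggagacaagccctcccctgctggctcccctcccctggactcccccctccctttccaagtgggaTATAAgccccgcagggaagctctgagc
TATAA stood 31 to 27 bases before the start of Ppy and 27 to 23 bases before that of Pyy, and 22.8% of 32851 mouse windows of this length held it on either strand. TGCTGA occurred at 173 to 168 and 41 to 36 bases before the Ppy start and at 160 to 155 bases before the Pyy start, against 16.1% of windows with a match. CANNTG had no match in Ppy and 1 in Pyy, at 36 to 31 bases before the start (66.2% of windows), and TAAT had none in either (54.9% of windows). These are matches of letters only.

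By its median over libraries, Ppy was most abundant in cluster 2, then in alpha-like and in delta-like cells, and far lower in beta-like cells. Levels are counts per 1e6 UMIs of genes other than mitochondrial and hormone genes (CPM), so the value of a dominant hormone can exceed that of all other genes. A 3′ UMI count is 1 tag per molecule and was not divided by transcript length. The median over the 4 libraries was 674175 CPM of Ppy in cluster 2 (180298 to 904392), 121647 in alpha-like cells (19545 to 170642), 56325 in delta-like cells (37259 to 63080) and 2094 in beta-like cells (587 to 2674). Endothelial-like cells stood at 271 CPM (185 to 1124). The ranges of cluster 2 and alpha-like cells did not overlap, those of alpha- and delta-like cells did, and beta-like cells lay below both in every library. In the control delta-like cells (54993 CPM) lay above alpha-like cells (19545 CPM).

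By its medians over libraries Pyy followed the same order with a flatter profile. Its medians were 247699 CPM in cluster 2 (65771 to 283272), 146964 in alpha-like cells (33579 to 180625), 105633 in delta-like cells (83335 to 111937) and 946 in beta-like cells (437 to 1067). Neighbours among the first 3 overlapped over libraries, and beta-like cells lay below delta-like cells in every library. In the control the order was another, with 83335 CPM of Pyy in delta-like cells, 65771 in cluster 2 and 33579 in alpha-like cells. Outside the endocrine clusters several sums rested on 1 cell: a single fibroblast-like cell held 97.4% of that class's Ppy in the early library, and a single endothelial-like cell held 84.7% of its Pyy. Cluster 9, led by cell cycle genes, had 1 control cell with 78.9% of its Ppy.

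**Figure D1:**
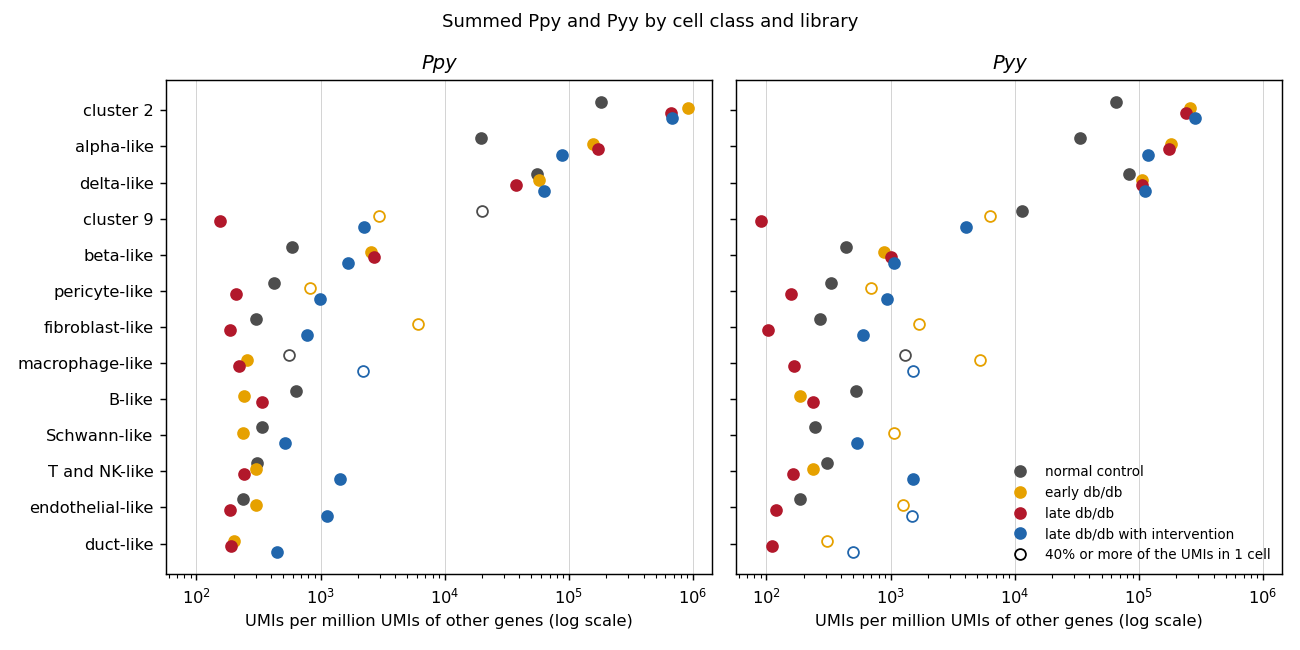
Summed Ppy (left) and Pyy (right) by cell class (rows) and library (colours), in CPM on a log axis; open circles mark sums with 40% or more of their UMIs in 1 cell. Cluster 2, alpha-like and delta-like cells lie to the right of beta-like cells for both genes, and the control alpha-like point lies left of the other libraries.

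Cells dominated by Ppy were a small part of the endocrine cells and were scarcest in the control. They numbered 61 of 3976 cells in the control (1.53%, 1.18 to 1.97), 120 of 2575 in the early library (4.66%, 3.88 to 5.55), 48 of 1118 in the late library (4.29%, 3.18 to 5.65) and 107 of 4210 in the intervention library (2.54%, 2.09 to 3.06). The control interval lay below the other 3, and those of the early and late libraries overlapped. The share depends on how many other endocrine cells a library gave as well as on the number of Ppy-dominant cells, and these cannot be told apart here. In 39.3%, 35.8%, 43.8% and 42.1% of these cells Ppy was under 2 times the next hormone, so many cells lay near the edge of the class, which is a range of counts. The same held for 35.6%, 38.4%, 37.3% and 37.3% of Sst-dominant cells. When Ppy had to be at least 2 times the next hormone, the shares were 0.931%, 2.99%, 2.42% and 1.47%.

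Ppy was a large part of the transcripts of a Ppy-dominant cell. The median was 9517 UMIs in the control, 7262 in the early library, 10521.5 in the late library and 5138 in the intervention library, or 38.2%, 39.7%, 35.6% and 32.2% of all UMIs of the cell. Their median depths were 24523, 20104.5, 30190 and 14558 UMIs, so as a share of the cell the libraries were closer together than as counts. Pyy accompanied Ppy in nearly all of them at this limit: it passed background in 98.4% (91.2 to 100) of the control cells and in 100% (97.0 to 100), 100% (92.6 to 100) and 100% (96.6 to 100) of the others. With a stricter percentile as limit the shares were 91.7%, 55%, 100% and 84.0%. That limit rests on the highest background cells, and 3 of the 986 in the early library held at least 1000 Pyy UMIs. At least 100 Pyy UMIs were found in 95.1%, 98.3%, 100% and 96.3% of the Ppy-dominant cells. The Pyy medians were 2273, 2457, 4228.5 and 1992 UMIs. Most of these cells held little glucagon transcript: the Gcg median was 29, 9, 8 and 17 UMIs, while 21.3%, 34.2%, 25% and 34.6% of them held at least 100 Gcg UMIs.

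The clusters in which Ppy-dominant cells fell differed between libraries. In the control 35 of the 61 lay in cluster 2, 15 among alpha-like and 11 among delta-like cells. In the early library 80 of 120 lay among alpha-like cells, 20 in cluster 2, 16 among delta-like and 4 among beta-like cells. In the late library 29 of 48 were alpha-like and 15 in cluster 2, and in the intervention library 33 of 107 were alpha-like and 59 in cluster 2. Hormone genes did not enter the clustering, so these positions rest on the rest of each cell's transcriptome. Cluster 2 itself held 243, 31, 24 and 96 cells, of which 14.4%, 64.5%, 62.5% and 61.5% were Ppy-dominant. In the control 45.7% of it was insulin-dominant, at an insulin limit of 22163.9 UMIs against 86.5, 167 and 654.66 in the other libraries. Of its 243 control cells 35 were Ppy-dominant, 5 Pyy-, 3 Gcg- and 2 Sst-dominant. The rest were not called dominant, and insulin was the largest hormone in all 675 such endocrine cells of the control. Insulin was thus the largest hormone in most control cells of cluster 2, beside fewer cells led by other hormones.

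Cells in which Pyy outnumbered every other hormone were rarer still: 30, 42, 21 and 22 cells, or 0.755%, 1.63%, 1.88% and 0.523% of endocrine cells. In 83.3%, 66.7%, 95.2% and 81.8% of them Pyy was under 2 times the next hormone. They were spread over delta-like cells (20, 13, 14 and 9) and alpha-like cells (5, 28, 7 and 10). Their Ppy medians were 795, 609, 1176 and 494 UMIs, and Ppy passed background in 96.7%, 85.7%, 95.2% and 95.5% of them.

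**Figure D2:**
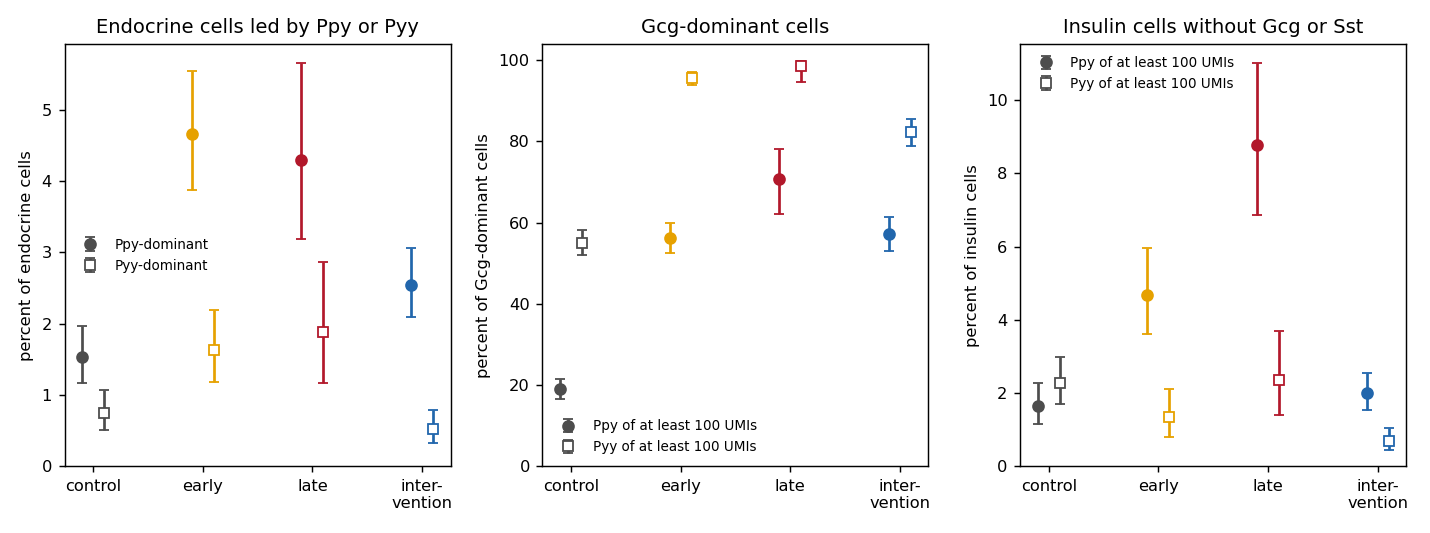
Shares of cells with exact 95% binomial intervals (counting error only) in the 4 libraries; filled circles are Ppy and open squares Pyy. Left, cells led by either gene among endocrine cells; middle, Gcg-dominant cells with at least 100 UMIs of either gene; right, the same among insulin cells without Gcg or Sst, where the late library is highest for Ppy at 8.77%.

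Ppy counts of at least 100 UMIs were the exception in glucagon cells of the control and the rule in those of the 3 db/db libraries. Gcg-dominant cells numbered 1059, 734, 133 and 531. Their Ppy median was 8 UMIs in the control (quartiles 4 and 48.5), 173.5 in the early library (14.25 and 700.5), 487 in the late library (45 and 1359) and 141 in the intervention library (27.5 and 457.5). The control median lay within the background limit of 9 UMIs, and those of the other libraries lay above theirs. At least 100 Ppy UMIs were found in 19.0% (16.7 to 21.5) of the control cells, 56.3% (52.6 to 59.9) in the early library, 70.7% (62.2 to 78.2) in the late library and 57.3% (53.0 to 61.5) in the intervention library. The control interval lay below the other 3.

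Median depth of the Gcg-dominant cells was 20499, 18156.5, 31418 and 12917 UMIs, so the shallowest of these libraries, that of the intervention, still held more Ppy per cell than the control. With every cell thinned to 5000 UMIs, Ppy passed background in 37.0% (34.0 to 40.1) of 988 control cells, 74.5% (71.2 to 77.7) of 718 early, 83.3% (75.9 to 89.3) of 132 late and 60.6% (55.7 to 65.2) of 426 intervention cells. Without thinning the shares above background were 44.1%, 86.8%, 89.5% and 83.1%. The control was lowest and the late library highest both ways, and the intervention share was the one most changed by thinning.

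Pyy was the more common of the pair in glucagon cells. Its medians were 128, 1049.5, 1875 and 465 UMIs, and at least 100 UMIs were found in 55.1%, 95.6%, 98.5% and 82.3% of Gcg-dominant cells. Ppy outnumbered Pyy in only 10.6% (8.79 to 12.6), 13.9% (11.5 to 16.6), 15.8% (10.0 to 23.1) and 23.7% (20.2 to 27.6) of them. Within a library, cells with a larger share of Ppy among their UMIs also tended to have more Pyy: Spearman's rho over Gcg-dominant cells of 1 library was 0.57, 0.32, 0.46 and 0.36. Against Gcg itself the rho of Ppy was −0.08, −0.18, −0.10 and −0.15. Cells of a library share its free RNA and the shares add up within a cell, so these values are descriptions.

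Summed over Gcg-dominant cells, Ppy stood at 12680 CPM in the control, 62155 in the early library, 63509 in the late library and 57274 in the intervention library. This was 5.01-fold higher in the late library than in the control (log2 2.32, 2.31 to 2.33), 4.90-fold higher in the early library and 4.52-fold higher with the intervention. The early and late libraries were nearly equal (log2 0.03), and the intervention was 1.11-fold below the late library (log2 −0.15). Pyy stood at 30182, 150253, 133238 and 103202 CPM, or 4.41-fold higher in the late library than in the control, 4.98-fold in the early library and 3.42-fold with the intervention. The intervention was 1.29-fold below the late library for Pyy. These comparisons share the control library, and the early library also differs from the others in age.

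**Figure D3:**
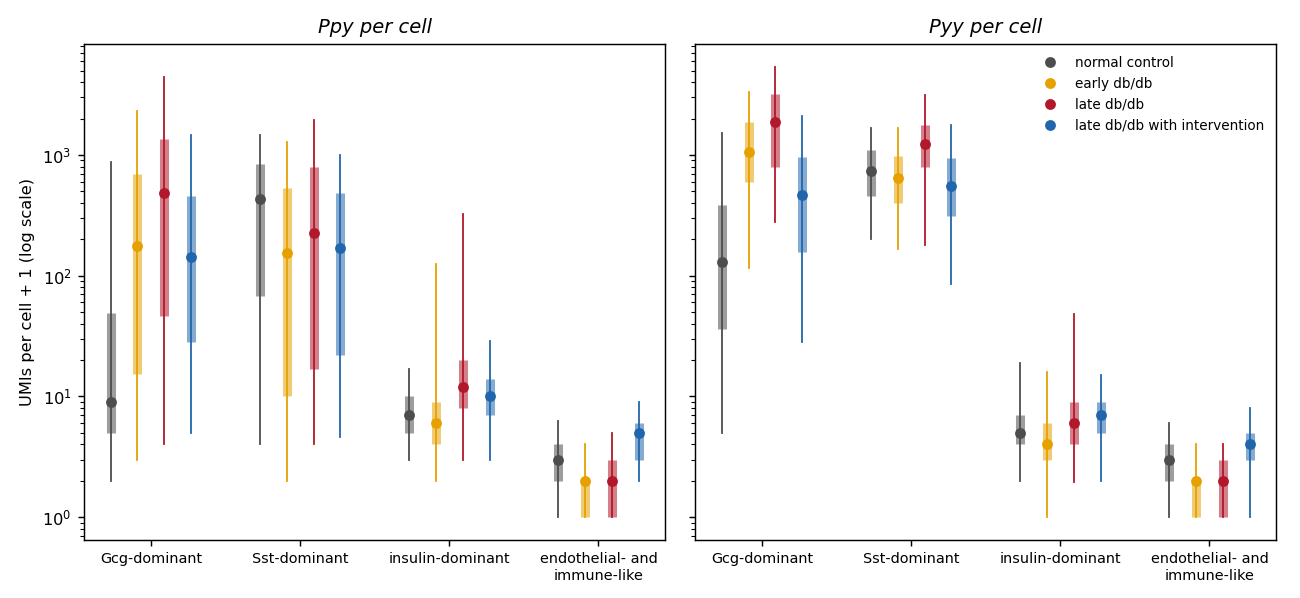
UMIs of Ppy (left) and Pyy (right) per cell, plus 1, on a log axis, for cells dominated by Gcg, Sst or insulin and for endothelial- and immune-like cells; dots are medians, thick bars quartiles and thin bars the 5th to 95th percentiles. In Gcg-dominant cells the control medians of 8 and 128 UMIs lie below those of the other libraries, while the 4 libraries overlap in Sst-dominant cells.

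In Sst-dominant cells the control had the highest Ppy level and the lowest summed Pyy level of the 4 libraries. Sst-dominant cells numbered 435, 263, 110 and 233, with Ppy medians of 431, 152, 225.5 and 170 UMIs at median depths of 14109, 10734, 20361 and 10744. At least 100 Ppy UMIs were found in 72.4% (68.0 to 76.6), 56.3% (50.05 to 62.4), 60.0% (50.2 to 69.2) and 56.7% (50.2 to 63.1) of them. The control interval overlapped that of the late library and lay above those of the early and intervention libraries. Pyy was nearly universal, passing background in 100%, 100%, 100% and 99.6% of Sst-dominant cells, with medians of 739, 641, 1227.5 and 551 UMIs.

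Summed Ppy in Sst-dominant cells was 56442, 49045, 39007 and 50220 CPM, 1.45-fold lower in the late library than in the control (log2 −0.53) and 1.29-fold higher with the intervention than in the late library (log2 0.36). Pyy was 87540, 110876, 104646 and 110282 CPM, within 1.27-fold of the control in each db/db library. No contrast of either gene in these cells reached 2-fold. Inside Sst-dominant cells Spearman's rho between the shares of Ppy and Pyy was 0.00, −0.02, 0.30 and 0.03, and cells with more Sst had less Ppy (rho −0.34, −0.46, −0.43 and −0.27).

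Few insulin cells carried 100 or more Ppy UMIs, and their share was largest in the late library. Among cells with at least 1000 insulin UMIs and under 100 UMIs of Gcg and of Sst (2240, 1344, 764 and 3143 cells), the median Ppy count was 6, 5, 11 and 9 UMIs. At least 100 Ppy UMIs were found in 37 cells of the control (1.65%, 1.17 to 2.27), 63 of the early library (4.69%, 3.62 to 5.96), 67 of the late library (8.77%, 6.86 to 11) and 63 of the intervention library (2.0%, 1.54 to 2.56). In background cells the same count was reached by 1 of 316, 1 of 986, 0 of 4508 (upper bound 0.0818%) and 2 of 360 cells. The interval of the late library lay above the other 3, and those of control and intervention overlapped. These few cells held 76.0%, 85.8%, 84.3% and 48.1% of the Ppy UMIs of their group.

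Most Ppy-rich insulin cells of the control carried Pyy as well, and most of those in the other libraries did not. In the control 30 of the 37 also held at least 100 Pyy UMIs and 7 held Ppy alone. In the early library 49 of 63 held Ppy without Pyy, in the late library 53 of 67 and in the intervention library 48 of 63. At least 100 Pyy UMIs were found in 2.28%, 1.34%, 2.36% and 0.70% of the insulin cells. Median doublet scores of the Ppy-rich cells and of the other insulin cells were 0.0732 and 0.0536 in the control, 0.0661 and 0.0514 in the early library, 0.0446 and 0.0377 in the late library, and 0.0862 and 0.0784 in the intervention library. The score was higher in the Ppy-rich cells in each library, and its part in the result was not tested. The median depth of the Ppy-rich cells was 39989, 45224, 83803 and 36753 UMIs, below that of the other insulin cells (49470, 57799, 88033 and 42426.5).

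A limit set in the shallower background cells gave another picture of the insulin cells. Ppy passed it in 19.6%, 58.5%, 71.9% and 26.1% of insulin-dominant cells, whose median depths were 56112, 57180.5, 86883.5 and 42047 UMIs. As a share of the cell's UMIs it passed in 1.92%, 6.38%, 9.18% and 1.03%, and after thinning to 5000 UMIs in 2.26%, 8.02%, 11.1% and 0.407%. The late library had the highest value under each of these rules. The intervention library lay above the control by this count limit and below it as a share and thinned, and also without doublet removal (2.89% against 5.03%). With a stricter percentile limit the values were 0.289% and 1.97%. That limit rests on the highest background cells, which reached 654 Ppy UMIs in the intervention library and 210 in the control, so these 2 values were taken at unlike limits. In the control 675 endocrine cells with insulin as the largest hormone were not called dominant, because its background cells set an insulin limit of 22163.9 UMIs.

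**Figure D4:**
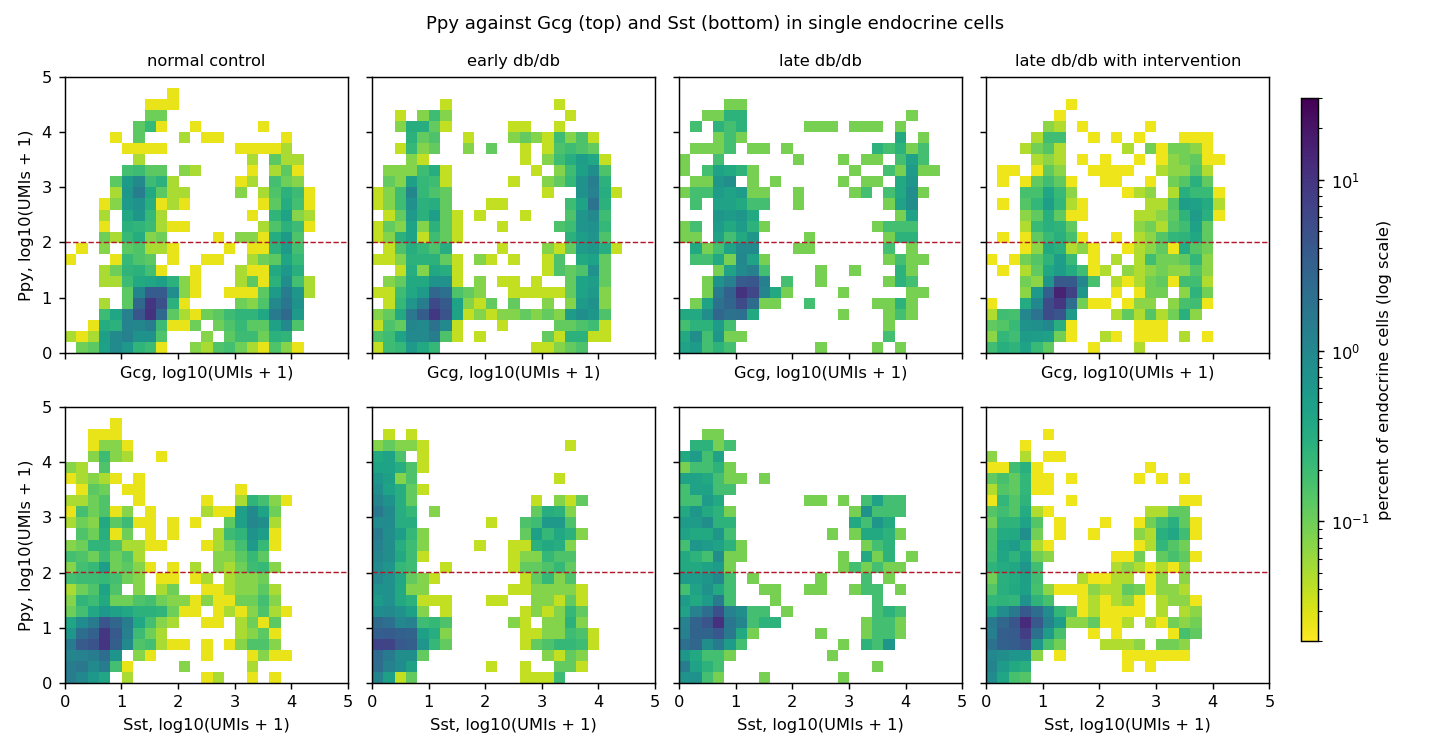
Joint counts of Ppy (vertical) with Gcg (top) or Sst (bottom) in endocrine cells, as log10(UMIs + 1), 1 panel per library; colour is the percentage of that library's endocrine cells on a log scale and the dashed line marks a value of 2, near 100 UMIs. The column of Gcg-high cells sits mostly below the line in the control and mostly above it in the other 3 libraries.

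Counting every endocrine cell with at least 100 Ppy UMIs gave 669, 787, 302 and 633 cells, or 16.8%, 30.6%, 27.0% and 15%. Pyy was also at 100 or more in 96.7%, 92.6%, 81.1% and 88.6% of these. In the other direction, 54.6%, 62.9%, 73.4% and 68.4% of the Pyy-rich cells were Ppy-rich. Most Ppy-rich cells were thus Pyy-rich, and the reverse share was lower in each library.

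The hormone that accompanied Ppy differed between libraries. In the control 55.8% of Ppy-rich cells also held at least 100 Sst UMIs and 33.6% at least 100 Gcg UMIs. In the early library the order was reversed, with 60.4% for Gcg and 22.9% for Sst, and the shares were 39.7% and 27.8% in the late library and 55.9% and 24.5% in the intervention library. Insulin of at least 1000 UMIs accompanied Ppy in 10.5%, 10.0%, 25.8% and 10.7%. Cells rich in Ppy and in neither Gcg, Sst nor insulin numbered 43, 71, 32 and 66, and only 4, 2, 0 and 3 of them lacked Pyy.

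Among glucagon cells the libraries differed in how many carried all 3 transcripts. Cells rich in Gcg, Ppy and Pyy and no other hormone numbered 207 in the control (5.21% of endocrine cells), 465 in the early library (18.1%), 112 in the late library (10.0%) and 327 in the intervention library (7.77%). Cells rich in Gcg alone numbered 471, 26, 2 and 80. Cells rich in Gcg alone outnumbered those with Ppy and Pyy in the control, and were outnumbered by them in the other 3 libraries. Cells rich in Sst, Ppy and Pyy numbered 332, 165, 78 and 146, against 119, 118, 46 and 90 with Sst and Pyy only. In every library they were the more numerous of these Sst states.

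The alpha-like clusters, called without the hormone genes, gave the same direction. They held 1092, 848, 170 and 582 cells. Most were in cluster 0 in the control, late and intervention libraries (98.7%, 80.6% and 98.6%) and in cluster 7 in the early library (91.2%), so a cluster of mostly 1 library stands behind the early values. In cluster 0 alone the Ppy median was 8 UMIs in the control, 248 in the early library (75 cells), 913 in the late library and 161.5 in the intervention library. In cluster 7 it was 251 in the early library and 345 in the late library (33 cells).

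Summed over alpha-like cells, Ppy was 8.73-fold higher in the late library than in the control (log2 3.13, 3.12 to 3.13) and Pyy 5.22-fold (log2 2.38), so both passed 2-fold in a comparison where 1.43% of the 3368 genes compared were at least 2-fold higher. In the early library against the control both passed as well, at log2 2.99 and 2.43, with 2.25% of genes. The intervention against the control gave log2 2.17 and 1.82, both past 2-fold, with 1.19% of genes. Gcg differed by −0.21, 0.20 and −0.09 in the same comparisons. Between the late and early libraries neither gene passed (0.14 and −0.04, with 0.399% of genes 2-fold higher and 0.797% lower). Neither was higher, or 2-fold lower, with the intervention than in the late library (−0.95 and −0.56, with 0.563% of genes higher and 0.948% lower).

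Part of these class values came from alpha-like cells led by Ppy or Pyy, and without them, a choice made after seeing the data, Ppy was at log2 2.35, 2.30 and 2.17 against the control, and −0.17 for the intervention against the late library. With all UMIs as the denominator, the median over all genes moved from −0.05 to −0.23 for the late library and from −0.04 to −0.32 for the early library against the control, and Ppy stood at 2.95 and 2.71. With no doublet removal the late against early value of Ppy turned from 0.14 to −1.24.

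In delta-like cells neither gene reached 2-fold in any comparison. Ppy was at log2 −0.56 in the late library and 0.07 in the early library against the control. There 1.71% and 2.02% of genes were at least 2-fold higher, and 0.830% and 1.61% lower. Ppy was at −0.63 for the late against the early library (0.424% of genes higher, 0.673% lower). For the intervention it was at 0.76 against the late library (0.32% higher, 0.961% lower) and 0.20 against the control (1.14% higher, 0.846% lower). Without cells led by Ppy or Pyy, the early and intervention values against the control were −0.17 and −0.11. Pyy lay between −0.01 and 0.43 in these comparisons. A single cell held 14.4% of the Ppy UMIs of the delta-like cells in the early library.

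The cells that held the Ppy transcripts also differed between libraries. Alpha-like cells held 21% of the control library's Ppy UMIs, 68.7% in the early library, 55.4% in the late library and 35.4% in the intervention library. Cluster 2 held 51.5%, 16.9%, 26.5% and 43.7%, and delta-like cells 24.4%, 8.23%, 8.41% and 11.8%. For Pyy alpha-like cells held 38.3%, 77.1%, 60.6% and 51.0%, and delta-like cells 39.4%, 14.6%, 25.2% and 22.4%. These shares also carry the number of cells of each class that a library held.

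Beside the hormones that define the groups, Ppy-dominant cells were compared with Gcg-dominant cells of the same library, and a gene was counted when it was at least 2-fold apart in the same direction in all 4 libraries. Of 3029 genes compared, the hormone genes themselves left out, 32 were higher (1.06%) and 25 lower (0.825%). With all UMIs as denominator 8 were higher and 28 lower, and with limits of 20 CPM and 20 UMIs 74 and 42. Tspan8, a tetraspanin of the cell surface, ranked first by its smallest ratio over the libraries: it stood at 1378, 890, 969 and 799 CPM in Ppy-dominant cells against 35.0, 22.8, 23.1 and 35.9 in Gcg-dominant cells (log2 5.30, 5.29, 5.39 and 4.48). The others named by the same rule were Fam159b, Hspb1 (a small heat shock protein), Fxyd3 (a regulator of the sodium pump), S100a10 (the partner of annexin A2), Folr1 (a folate receptor), Hadh (an enzyme of fatty acid oxidation), Sult1d1 (a sulfotransferase), Gstm1 (a glutathione transferase) and Smim1. Their log2 ratios lay between 1.82 (Smim1, intervention) and 5.86 (Fam159b, the early library). Tspan8 was also present in Sst-dominant cells, at 615, 607, 581 and 499 CPM, and Fam159b was higher there (1167, 1251, 865 and 1083 CPM) than in Ppy-dominant cells (198, 126, 108 and 107 CPM). S100a10 (232, 361, 205 and 236 CPM against 97.1, 138, 97.1 and 91.2) and Hadh (443, 524, 441 and 529 CPM against 193, 190, 147 and 214) were also higher in Sst- than in Ppy-dominant cells. Insulin-dominant cells held more Hadh (1096, 392, 329 and 563 CPM) and Smim1 (164, 111, 102 and 120 against 91.4, 56.1, 72.0 and 68.0) than Ppy-dominant cells. They held less Tspan8, Fam159b, Hspb1, Fxyd3 and Folr1 in every library. For S100a10, Sult1d1 and Gstm1 the direction differed between libraries. All 10 genes were higher in Sst-dominant than in Gcg-dominant cells in each library. Sst itself reached at least 100 UMIs in 16.4%, 13.3%, 6.25% and 9.35% of Ppy-dominant cells. In Gcg-dominant cells these shares were 0.661%, 0.272%, 0.752% and 0.377%. The part of such Sst-rich cells in the ratios of these genes was not tested.

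Among the genes lower in Ppy-dominant cells, Ttr, the thyroxine carrier transthyretin, stood at 4948, 6770, 5335 and 5966 CPM against 57879, 71935, 50705 and 59565 (log2 −3.55, −3.41, −3.25 and −3.32). Irx1, a homeobox transcription factor, was at log2 −5.16, −2.05, −1.85 and −1.82. Slc38a5 (an amino acid transporter), Ang (angiogenin), Upk3a (a uroplakin), Rnase4, Slc30a8 (the zinc transporter of secretory granules), Oxtr (the oxytocin receptor) and Hhatl were also named by the rule. Of the summed alpha marker list without Gcg (10 genes), Ppy-dominant cells held 8191, 10565, 9012 and 9450 CPM against 62505, 77081, 56154 and 64914 in Gcg-dominant cells. Delta markers without Sst (6 genes) were at 1793, 1065, 1166 and 1159 CPM against 1895, 807, 980 and 1220.

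**Figure D5:**
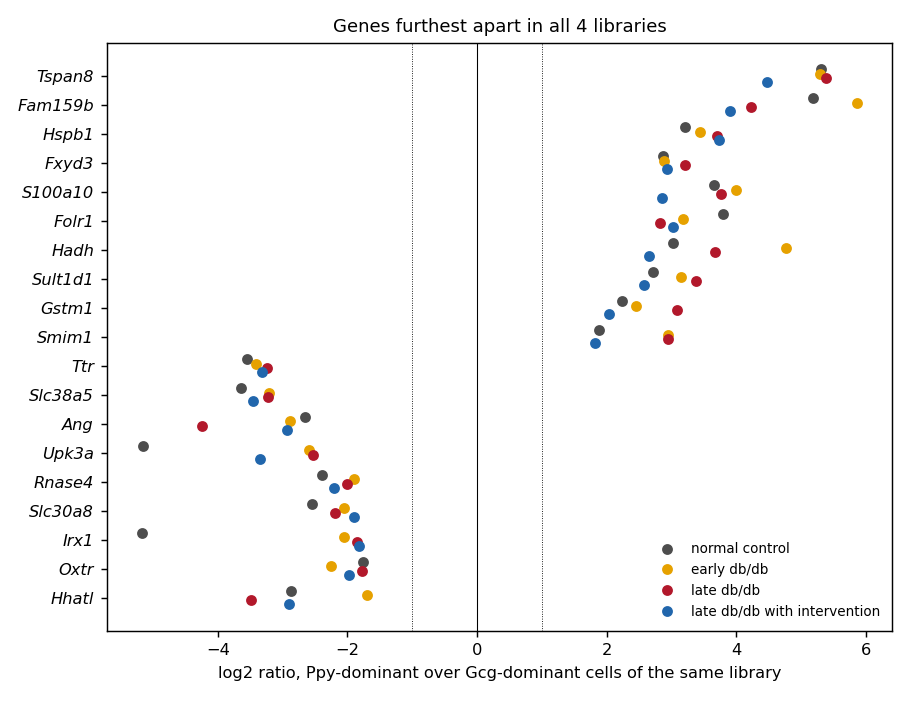
Log2 ratio of summed expression in Ppy-dominant over Gcg-dominant cells of the same library (points, 1 colour per library) for genes furthest apart in each direction; dotted lines mark 2-fold. All points lie beyond 2-fold on the side of their gene, with Tspan8 at 4.48 or above in every library and Ttr between −3.55 and −3.25.

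Of 20 islet transcription factors, Nkx6-1 was at least 2-fold higher in Ppy-dominant cells in all 4 libraries (log2 2.14, 2.16, 2.0 and 1.74), and Irx1 and Irx2 were at least 2-fold lower, Irx2 at −1.59, −1.56, −1.43 and −1.43. Over all 3029 genes compared, 1.06% were 2-fold higher and 0.825% lower in all 4 libraries. Pax6, Isl1, Nkx2-2 and Foxa2 lay within 2-fold in each library. Pdx1 (41.4, 46.7, 53.2 and 53.6 CPM) and Hhex (47.1, 46.7, 28.2 and 34.7 CPM) were above Gcg-dominant cells (at most 8.3 and 5.8 CPM) but did not pass the abundance limits (50 CPM in 1 group and 50 UMIs over both) in every library. Mafa, Pou3f4, Rfx6 and Myt1 passed these limits in no library.

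The gamma cell marker list, without Ppy and Pyy, was higher in Ppy-dominant than in Gcg-dominant cells of each library and lower than in Sst-dominant cells. Its 7 genes summed to 994, 792, 903 and 793 CPM in Ppy-dominant cells, 771, 709, 774 and 710 in Gcg-dominant cells and 1129, 953, 1090 and 1037 in Sst-dominant cells. Aqp3 was at 0 in the Ppy-dominant cells of every library and Abcc9 as well. Etv1 made up most of the sum in Ppy-dominant cells, with 601, 477, 526 and 469 CPM, and was within 2-fold of its level in Gcg-dominant cells (532, 501, 534 and 489 CPM). Meis2 was at 331, 259, 326 and 275 CPM against 216, 182, 202 and 194. The Ppy-dominant cells are described by their rule and given no cell type name.

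Of the 17 genes of the family and processing list, which make, cut and read these peptides, none passed the abundance limits and was 2-fold apart in the same direction in all 4 libraries. Pcsk2, the main convertase of alpha cells, was at 4881, 3959, 4385 and 4460 CPM against 6143, 5277, 5276 and 5411. Pam was at 542, 572, 637 and 630 CPM against 672, 734, 841 and 758. Chgb and Scg2, granins of the secretory granule, were furthest above Gcg-dominant cells among those that passed the limits, with log2 1.49, 0.91, 0.77 and 1.14 for Chgb and 1.75, 0.63, 0.57 and 0.72 for Scg2. Pcsk1, the convertase of beta cells, was at 44.3, 41.5, 42.3 and 50.7 CPM against 6.3, 6.7, 1.3 and 17.8, under the abundance limits in 3 libraries. The receptors Npy2r, Npy4r, Npy5r and Npy6r had no UMI in dominant cells of either kind. Npy itself had at most 1.4 CPM in Ppy-dominant cells, and Ghrl, the ghrelin gene of epsilon cells, was at 0 there.

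Across libraries, few genes of these lists were 2-fold apart in alpha-like cells. Of the family and processing list 9 of 17 genes passed the abundance limit, and Scg2 alone was 2-fold apart, higher in the late library (log2 1.17), the early library (1.10) and the intervention library (1.14) than in the control, where 1.43%, 2.25% and 1.19% of all genes compared were 2-fold higher and 0.920%, 1.92% and 0.787% lower. The median of the list was 0.02, 0.13 and 0.11 beside −0.05, −0.04 and −0.02 over all genes compared. Of 20 transcription factors 13 passed the limit and none was 2-fold apart in any of the 5 comparisons. In delta-like cells 10 or 11 of the 17 genes of the family and processing list passed the limit, and none was 2-fold apart. Of the 20 transcription factors 14 passed it against the control. In the late, early and intervention libraries 0.830%, 1.61% and 0.846% of all genes compared were 2-fold lower than in the control. Mafa was lower than in the control in all 3 db/db libraries (log2 −3.43 in the early library, −2.81 with the intervention, and −7.13 in the late library, where it rests on 1 UMI and the interval runs from −12.44 to −4.64). Nkx6-1 was lower than in the control in the early and intervention libraries (log2 −1.02 and −1.07). Both genes were also lower than in the control in insulin-dominant cells, where Mafa, a beta cell transcription factor, stood at 1085, 29.6, 31.8 and 106 CPM and Nkx6-1 at 585 CPM in the control and at most 332 CPM in the other libraries. Insulin-dominant cells had to pass 22163.9 insulin UMIs in the control, but only 86.5, 167 and 654.66 in the early, late and intervention libraries. Mafa in Gcg-dominant cells was at 13.2, 0.31, 0 and 3.44 CPM and in Sst-dominant cells at 21.5, 0.557, 0.684 and 5.45 CPM, and the part of insulin cell RNA in these differences was not tested.

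Genes of Ppy-dominant cells were also compared within glucagon cells. Gcg-dominant cells with at least 100 Ppy UMIs (201, 413, 94 and 304) were set against the other Gcg-dominant cells of their library (858, 321, 39 and 227). Of the 10 genes highest in Ppy-dominant cells, 10, 9, 5 and 9 were above 0 on the log2 scale, with medians of 0.72, 0.72, −0.06 and 0.66. Over the 3280, 3047, 3343 and 3368 genes compared, the medians were 0.03, 0.02, −0.04 and 0.01. Tspan8 was higher by log2 2.22, 1.06, 2.10 and 1.59. Its late value came from 28.9 CPM against 6.77 CPM in the 39 other cells, without an interval. These 10 genes were kept whether or not they passed the abundance limits here, and many did not. Fam159b was at 2.94 against 1.1 CPM in the early library, and S100a10 at 5.42 against 11.8 CPM in the late library. The 10 lower genes had medians of −0.34, −0.32, −0.31 and −0.16, and none was 2-fold lower in any library. Both gene sets were chosen from the same libraries, and the median doublet scores of the Ppy-rich and other cells were 0.0437 and 0.0389, 0.0337 and 0.0302, 0.0282 and 0.0390, and 0.0172 and 0.0160. In the late library, where only 39 cells were poor in Ppy, the higher genes showed no common direction.

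Over the 61 sums of at least 30 cells (26 clusters, each split by library), the gene with the profile most like that of Ppy among 9301 genes was Pyy (Pearson r of log2(CPM + 1) 0.952). It was followed by Ctxn2 (0.923), Ndst4 (0.867), Vwde (0.866) and Smarca1 (0.865). For Pyy the order after Ppy was Ctxn2 (0.921), Fbp1 (0.894), Ndst4 (0.884) and Fev (0.881). Ctxn2 was at 136, 122, 109 and 145 CPM in Gcg-dominant cells and 143, 116, 97.1 and 110 in Ppy-dominant cells, against at most 2.1 in insulin-dominant cells. In Sst-dominant cells, nearly all of which carried Pyy, Ctxn2 was lower, at 23.0, 27.8, 19.2 and 23.2 CPM. The sums share libraries, depths and free RNA, so the values describe likeness and carry no test.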

How the data were processed

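Counts are UMIs per gene and barcode in 4 filtered matrices from 10x 3′ libraries, as deposited by the authors. Per the submitters' processing notes, CASAVA 1.8, Cell Ranger, Seurat and mm10 were used, and the file headers give Cell Ranger 3.0.0. The sources used here name no annotation release. Barcodes with at least 1000 UMIs, 500 genes and at most 20% mitochondrial UMIs were kept, and the highest doublet scores were removed (0.8% of cells per 1000 cells), a rate set after seeing the data, as was the rule that left cluster 2 unnamed. Cells were clustered with scanpy 1.11.5 (2000 variable genes, 30 components, 15 neighbours, resolution 1). Shares carry exact binomial intervals, and ratios of summed counts exact conditional ones. Genes entered a ratio with 50 CPM and 50 UMIs, and at least 2-fold counted as apart. The genes named are the hormones, the family and processing list, 20 islet transcription factors, the 10 genes furthest apart in each direction in Ppy- against Gcg-dominant cells, and the 5 most alike in profile. Some items that this rule names are not reported here. Members and lists were chosen with earlier results of these data known. On sums simulated from control cells with 4-fold changes, 200 of 200 changed genes were recovered and 0 of 3629 unchanged ones called. Alternatives were other cell filters, limits, thinning, scalings (TMM from edgeR 4.0.16) and clusterings.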

Additional observations from a re-analysis of the deposited data

Results flagged for a closer look

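Ppy or Pyy had log2 ratios of opposite sign in glucagon and somatostatin cells in 10 cases, drawn from 5 comparisons between libraries, 2 genes and 2 overlapping groupings of the cells. The difference was not tested in any of them, since each group was 1 library. For Ppy, the ratio in Gcg-dominant cells minus that in Sst-dominant cells was 2.86 for late db/db against the control, 2.50 for early db/db against the control and 2.34 for the intervention against the control. It was 0.36 for late against early db/db and −0.51 for the intervention against late db/db. For Pyy it was −0.44 for the intervention against late db/db. Between the alpha- and delta-like clusters, the difference for Ppy was 3.69 for late db/db against the control, 0.77 for late against early db/db and −1.71 for the intervention against late db/db. For Pyy it was −0.65 for the intervention against late db/db. Without doublet removal the signs were no longer opposite in 2 of these cases: Ppy for late against early db/db was −1.24 in alpha-like and −0.73 in delta-like cells, and Pyy for the intervention against late db/db was −0.07 and −0.09.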

How the results depend on the processing

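With 1 library per group no replicate could be left out, and no paired analysis was possible because no result comes from a test. The Ppy-dominant share kept within its interval in 24 of 28 alternatives; with a margin of 2 it was 0.931%, 2.99%, 2.42% and 1.47% (libraries in the order of the report). Ppy above background in Gcg-dominant cells moved in 17 of 32 alternatives. It was 16.7%, 63.1%, 78.9% and 32.1% with a stricter percentile as limit, 25.6%, 70.0%, 75.2% and 68.7% with a limit on the share of UMIs, and 35.7%, 77.9% and 61.4% (control, early db/db, intervention) without doublet removal. Thinned, it was 37.0%, 74.5% and 60.6% in those 3 libraries, and with the 95th percentile, chosen after seeing the data, 61.9%, 90.1% and 86.4%. In insulin-dominant cells 23 of 32 moved: 1.97%, 4.04%, 12.4% and 0.289% at the stricter percentile, 1.92%, 6.38%, 9.18% and 1.03% by share, 2.26%, 8.02%, 11.1% and 0.407% thinned, 51.4%, 70.5%, 87.0% and 51.6% at the 95th percentile, 5.03%, 20.3% and 2.89% (control, early db/db, intervention) without doublet removal, 46.4%, 67.0% and 28.2% (early, late, intervention) under a stricter cell filter, and 54.3% in early db/db at resolution 0.5. Pyy above background in Ppy-dominant cells was 100% in the control under the stricter filter, the share limit, the margin of 2 and thinning, 96.1% in early db/db without doublet removal, and 55.0% in early db/db and 84.0% with the intervention at the stricter percentile. Of the 60 alpha-like levels 59 stayed on their side of 2-fold; Ppy in late against early db/db was −1.24 without doublet removal, and the cause was not tested. All 60 delta-like levels stayed on theirs. Among values under 2-fold, 2 alpha-like and 7 delta-like ones changed sign. The count of genes higher in Ppy-dominant cells was 8 (28 lower) with all UMIs as denominator and 74 (42 lower) with 20 CPM and 20 UMIs. Depth per cell, which differed between endocrine and background cells, limits every share above a count limit. The stricter percentile rested on the few highest background cells of a library. Their maxima were 210, 190, 89 and 654 UMIs of Ppy and 879, 4467, 80 and 667 of Pyy.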

Other observations

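Outside the endocrine clusters, 3 cells had Ppy as their largest hormone above background: 1 control cell of cluster 9, 1 endothelial-like cell and 1 fibroblast-like cell, the last 2 in early db/db.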
